A study of Mus musculus with 7 samples.

Results

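Amino acid transporters were taken as every gene on the array whose symbol begins with Slc1a, Slc3a, Slc6a, Slc7a, Slc36a, Slc38a or Slc43a followed by a digit, which gave 63 of 18193 genes. Of these, 60 are carriers or heavy chains by name and 3 are opposite-strand genes that share a carrier's name (Slc36a1os, Slc6a19os and Slc7a6os). Each gene was read by 1 probe set, the one with the highest mean over 7 Affymetrix mouse expression arrays, and all levels below are log2 values, so that a difference of 1 is a 2-fold change. The study set induced hepatic stem cells (iHepSCs) beside primary hepatocytes (pHep) and mouse embryonic fibroblasts (MEF), all labelled as strain C57BL/6 (C57BL/6J in the study's methods for the hepatocytes and the MEF), to ask how far the induced cells had taken on a liver expression profile. The 2 iHepSC arrays are of MEF-derived cells made with lentiviral Oct4 and Hnf4a in an SFFV vector and grown in hepatocyte medium based on William's E. One was taken at passage 3 (P3) and the other at passage 20 (P20), and the labels do not say from which of the study's iHepSC clones they came. The study states that its detailed work after cloning used the clone iHepSC-C3. It also compared its arrays with published ones of wild-type hepatic stem cells, which are not among the 7 arrays used here. The pHep array is 1 preparation from the liver of a 6-week-old male, obtained by collagenase perfusion and Percoll and plated for a few hours before RNA was taken. The 4 MEF arrays are of fibroblasts from mid-gestation embryos without head and internal organs, in a DMEM-based medium with added non-essential amino acids. The hepatocytes were plated from Williams' medium E with L-glutamine, so that iHepSCs and pHep shared a base medium that MEF did not have. Medium thus differed from MEF together with cell type, and the contributions of each cannot be told apart. The replicates are not said to be separate cultures, so that the p-values measure only the spread between these arrays, which may be technical.

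Amino acids cross the cell membrane through carrier families that divide the work by charge and by driving force. Slc1 carriers take up glutamate or small neutral amino acids with sodium, Slc38 carriers move glutamine, alanine and other small neutral amino acids, and Slc7 members either carry arginine and lysine alone or act as light chains that need an Slc3 heavy chain to reach the membrane. Slc6 carriers move amino acids, taurine, creatine and neurotransmitters with sodium and chloride, Slc36 carriers are driven by protons, and Slc43 carriers let large neutral amino acids pass by facilitated diffusion. The liver takes up alanine and glutamine for gluconeogenesis and urea synthesis.

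The labels were checked on marker genes. Of 6 hepatocyte markers measured, 4 exceeded MEF in iHepSCs and 5 did so in pHep. Alb reached 13.74 and 14.39 in iHepSCs and 15.13 in pHep, against 5.35 to 5.89 in MEF, whereas Cps1 stood at 5.67 and 5.98 in iHepSCs and 12.74 in pHep, against 4.85 to 5.42 in MEF. Cyp2e1 was at 5.11 in pHep and at 5.22 to 5.52 in MEF. All 6 fibroblast markers were lower in both, but their median was 5.02 and 5.01 in iHepSCs, 7.25 in pHep and 12.44 to 13.38 in MEF, and Col3a1 still reached 10.88 in pHep. Of 10 macrophage and Kupffer cell markers, 7 were higher in pHep than in MEF (Vsig4 by 6.26), with a median of 9.91 in pHep and 6.53 to 7.40 in MEF. Of 5 bile duct markers, 3 were higher and 1 lower in iHepSCs, and 2 were higher and 1 lower in pHep, with a median of 8.04 and 8.14 in iHepSCs, 9.70 in pHep and 7.78 to 7.86 in MEF. Krt7 was 6.15 higher and Krt19 5.16 higher in iHepSCs, and Krt7 was 3.85 higher and Sox9 3.43 higher in pHep. Of 7 endothelial and stellate cell markers, 1 was higher and 1 lower in iHepSCs, and 1 was higher and 2 lower in pHep. The part of these other cell types in the levels below was not tested. In bulk RNA, fewer cells of a type and less RNA per cell cannot be told apart. MEF replicate 1 stood apart from the other MEF arrays: it correlated with them at 0.960 to 0.961 over all genes while they correlated at 0.997 with each other, and the median of 3 dividing cell markers was 8.86 in it and 11.51 to 11.63 in the others.

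Among the 63 transporter genes, 10 were higher and 7 lower in iHepSCs than in MEF at a limma adjusted p under 0.05, or 15.9% and 11.1%, beside 18.2% and 13.4% of all genes tested. In pHep, 10 were higher and 9 lower than in MEF, or 15.9% and 14.3%, beside 14.8% and 15.5% of all genes. Against pHep, 3 were higher and 5 lower in iHepSCs, or 4.76% and 7.94%, beside 9.26% and 7.89% of all genes. These shares lay near or below the background, and 37 of the 63 genes were called in none of the 3 comparisons. Their median difference was 0.12 in iHepSCs and -0.16 in pHep against MEF, where that of all genes was 0.01 and -0.13. Of the 63 genes, 18 stayed under 6 on every array, and 1 of these 18 (Slc7a9) was called. With MEF replicate 1 left out, the counts became 19 higher and 10 lower for iHepSCs against MEF, 14 and 13 for pHep against MEF, and 14 and 8 for iHepSCs against pHep, and every call made with it was kept in the same direction. The shares of all genes then were 31.0% higher and 24.8% lower, 27.0% and 31.6%, and 25.4% and 17.3%, in the same order. Centring on Gapdh gave 15 higher and 4 lower for iHepSCs against MEF, beside 25.0% and 5.79% of all genes, 7 and 5 for pHep against MEF, beside 8.38% and 7.59%, and 6 and 5 for iHepSCs against pHep, beside 9.02% and 3.39%. Centring on the array median gave 5 and 5 for iHepSCs against pHep, beside 10.3% and 7.43% of all genes. With MEF replicates 2 to 4 averaged to 1 sample, 18 of the 44 calls on genes described below were kept: Slc1a6, Slc38a1, Slc38a4, Slc7a3, Slc7a4, Slc7a7 and Slc7a9 for iHepSCs against MEF, Slc1a3, Slc1a6, Slc38a3, Slc3a1 and Slc6a13 for pHep against MEF, and Slc38a1, Slc38a3, Slc38a4, Slc3a1, Slc6a13 and Slc7a3 for iHepSCs against pHep.

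The calls against MEF fell into 6 groups. Both iHepSCs and pHep were higher than MEF for 6 genes (Slc7a2, Slc7a4, Slc7a7, Slc38a9, Slc43a2 and Slc6a13) and lower for 4 (Slc1a3, Slc1a4, Slc1a6 and Slc6a17). iHepSCs alone passed the test for 4 higher genes (Slc6a6, Slc7a9, Slc36a1 and Slc38a1) and 3 lower genes (Slc38a4, Slc43a3 and Slc7a3). pHep alone passed it for 4 higher genes (Slc3a1, Slc38a2, Slc38a3 and Slc38a10) and 5 lower genes (Slc7a1, Slc7a5, Slc7a6, Slc43a1 and Slc6a15). No gene was called in opposite directions with all arrays in the fit. Without MEF replicate 1, Slc7a3 was called lower in iHepSCs (-2.34) and higher in pHep (0.77). Slc7a5 was then called higher in iHepSCs (0.35) and lower in pHep (-0.89). Both comparisons use the same MEF arrays, and of these 16 genes called in 1 of them, the direct test of iHepSCs against pHep was passed by 7: Slc38a1, Slc7a5 and Slc7a6 were higher in iHepSCs, and Slc3a1, Slc38a3, Slc38a4 and Slc7a3 were lower.

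**Figure D1:**
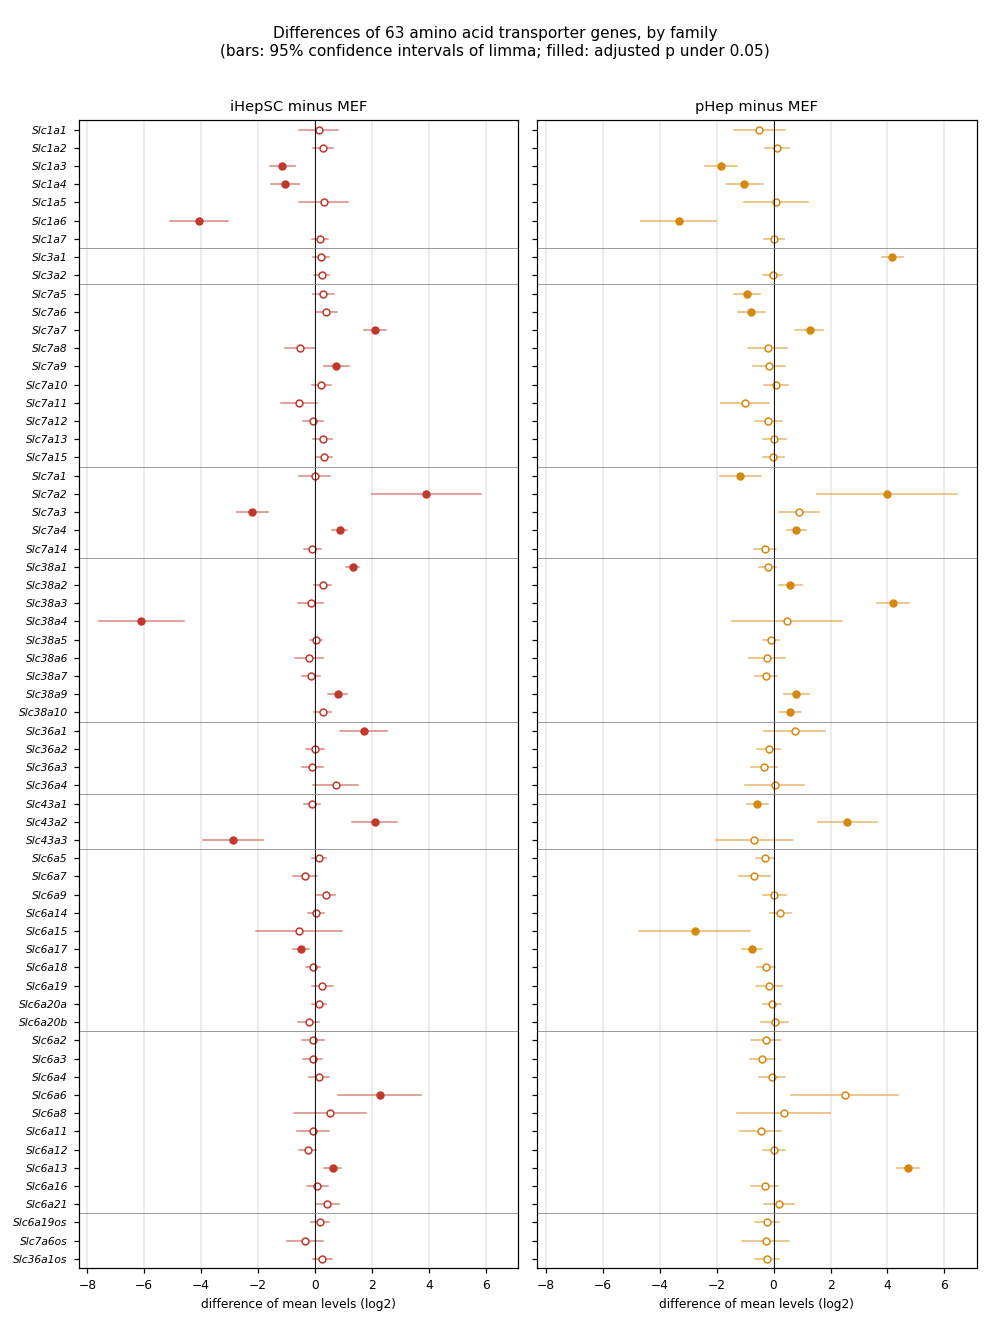
Differences of mean log2 level for the 63 transporter genes, grouped by family, with iHepSC minus MEF on the left and pHep minus MEF on the right. Bars are 95% confidence intervals of limma and filled points passed an adjusted p of 0.05, so that most points lie near 0, with Slc38a4 (-6.11 in iHepSCs) and Slc6a13 (4.71 in pHep) farthest out.

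The Slc38 family held both the deepest loss in iHepSCs and a carrier found high in pHep alone. Slc38a4, a carrier of small neutral amino acids that is imprinted in the mouse, was at 4.31 (P3) and 3.98 (P20) in iHepSCs, at 10.73 in pHep, and at 8.77, 10.75, 10.75 and 10.76 in MEF. Both iHepSC arrays lay far below every other array, and the pHep level lay within the MEF range. The difference of iHepSCs was -6.11 ± 0.61 (SE; adjusted p = 0.000677) against MEF and -6.58 ± 0.87 against pHep (adjusted p = 0.0038), and a second probe set gave -6.44 against MEF. The pHep difference from MEF was 0.47, with a 95% interval of -1.46 to 2.40. On the second probe set pHep was at 11.45, above all MEF arrays (8.82 to 10.59), a difference of 1.36 with no test.

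Slc38a3, the sodium-coupled glutamine carrier of hepatocytes, was at 6.79 and 6.88 in iHepSCs, at 11.18 in pHep, and at 6.71, 6.86, 7.09 and 7.30 in MEF. It stood 4.19 ± 0.23 higher in pHep than in MEF (adjusted p = 7.3e-05) and iHepSCs minus pHep gave -4.34 ± 0.26, while iHepSCs overlapped the MEF range (difference -0.16, 95% interval -0.59 to 0.28). Its second probe set, at 5.81 to 6.14 on all arrays, showed no such rise. Slc38a1, a glutamine carrier of growing cells, was at 12.03 and 11.92 in iHepSCs, at 10.45 in pHep, and at 10.60 to 10.75 in MEF, so that both iHepSC arrays lay above all others. This was a rise of 1.32 ± 0.10 over MEF (adjusted p = 0.000163) and of 1.53 ± 0.14 over pHep. Its other probe set, the one used when probe sets of suffix _s_at were left out, differed by 0.64 from MEF and by 0.32 from pHep, and both calls were lost (adjusted p = 0.0579 and 0.515).

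Slc38a2, which is induced by amino acid shortage in many cells, was at 12.60 and 12.95 in iHepSCs, at 13.11 in pHep, and at 12.45 to 12.60 in MEF. It was 0.59 ± 0.16 higher in pHep (adjusted p = 0.0382), a call lost without MEF replicate 2, 3 or 4 (adjusted p = 0.0873, 0.0884 and 0.0823) or centred on Gapdh (0.301), and its 3 probe sets did not run one way (adjusted p = 0.423 for their mean). Slc38a9, the lysosomal arginine sensor upstream of mTORC1, was at 8.27 and 8.72 in iHepSCs, at 8.51 in pHep, and at 7.69 to 7.74 in MEF. It was higher by 0.79 ± 0.14 in iHepSCs and by 0.80 ± 0.18 in pHep, and each of its 7 probe sets gave a positive difference in both, although the pHep call missed the threshold without MEF replicate 2, 3 or 4 (adjusted p = 0.0506, 0.0542 and 0.0526) or centred on Gapdh (0.157). Slc38a10 was called higher in pHep (0.58 ± 0.15), with probe sets that ran from -1.30 to 1.57, and lost the call without any 1 of MEF replicates 2 to 4 or of the iHepSC arrays (adjusted p = 0.0667 to 0.0775), on the mean of its probe sets (0.312) and centred on Gapdh (0.299). Slc38a5, Slc38a6 and Slc38a7 passed no test.

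Slc38a1, Slc38a2 and Slc38a4 lie side by side on chromosome 15 in the RefSeq annotation, with no other protein-coding gene between them. These 3 neighbours had 3 patterns: Slc38a1 was higher in iHepSCs, Slc38a2 was called only for pHep, and Slc38a4 fell by 6.11 in iHepSCs. The promoter of Slc38a4 is printed because its transcript changed most. The window runs from 250 bases before to 50 after the outermost of its 3 listed starts (RefSeq, GRCm38.p6, chr15:97055907-97056206, minus strand), and none of the 3 motifs described below was in it.
Slc38a4: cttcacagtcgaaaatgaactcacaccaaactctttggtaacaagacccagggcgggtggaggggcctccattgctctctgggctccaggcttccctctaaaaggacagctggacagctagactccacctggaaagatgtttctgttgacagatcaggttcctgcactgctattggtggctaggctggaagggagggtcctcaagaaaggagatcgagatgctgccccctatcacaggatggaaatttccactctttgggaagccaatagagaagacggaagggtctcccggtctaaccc

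**Figure D2:**
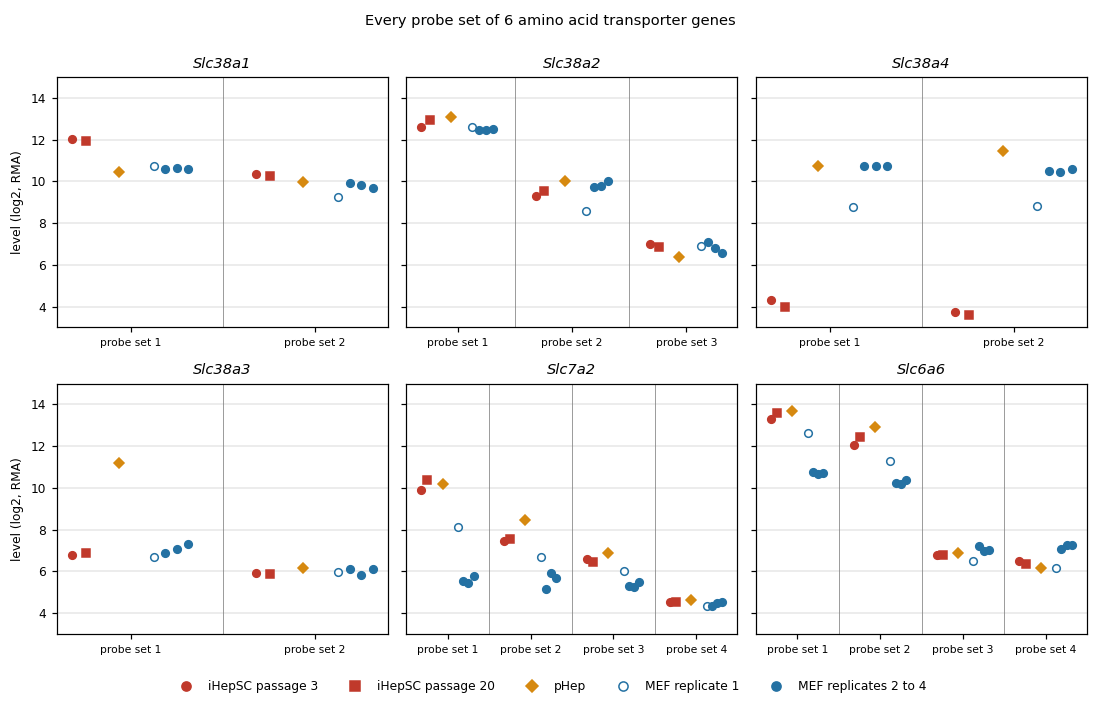
Log2 levels on each array for every probe set of 6 transporter genes, with iHepSC, pHep and MEF from left to right within a probe set. Both probe sets of Slc38a4 are low in iHepSCs (3.58 to 4.31), whereas the rise of Slc38a3 in pHep is seen by 1 of 2 probe sets.

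Cationic amino acid carriers of the Slc7 family did not move together: of 5 genes, 2 were higher and 1 lower in iHepSCs, and 2 were higher and 1 lower in pHep. Among all genes, 18.2% were higher and 13.4% lower in iHepSCs, and 14.8% and 15.5% in pHep. Slc7a2, whose liver isoform is a low-affinity arginine carrier, was at 9.88 and 10.36 in iHepSCs, at 10.19 in pHep, and at 8.10, 5.55, 5.43 and 5.79 in MEF. The iHepSC and pHep arrays were alike and above every MEF array, and MEF replicate 1 lay about midway between them and the other MEF arrays. The difference was 3.90 ± 0.78 in iHepSCs (adjusted p = 0.0115) and 3.97 ± 1.01 in pHep (adjusted p = 0.0301), while iHepSCs minus pHep gave -0.07 with a wide 95% interval of -2.76 to 2.62. Without MEF replicate 1 these differences became 4.53 and 4.60. The iHepSC call was lost without either iHepSC array (adjusted p = 0.0702 and 0.102) and the pHep call without any 1 of the other arrays but MEF replicate 1 (adjusted p = 0.0666 to 0.0724). All 4 probe sets were higher in both.

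Slc7a3, a cationic carrier best known from brain, was at 5.71 and 5.36 in iHepSCs, at 8.64 in pHep, and at 7.32, 7.89, 8.04 and 7.70 in MEF. It fell by 2.20 ± 0.22 in iHepSCs (adjusted p = 0.000701) and iHepSCs minus pHep gave -3.11 ± 0.32, with both iHepSC arrays under all others. The pHep array lay above all MEF arrays, and its difference from MEF, 0.905 ± 0.289 (95% interval 0.20 to 1.61), was not called. Slc7a1, the widely expressed high-affinity arginine carrier, was at 11.32 and 11.40 in iHepSCs, at 10.22 in pHep, and at 10.86, 11.55, 11.48 and 11.61 in MEF. It fell in pHep by 1.16 ± 0.29 (adjusted p = 0.029), the opposite side to Slc7a2, and the call was lost without any 1 of MEF replicates 2 to 4 or of the iHepSC arrays (adjusted p = 0.0642 to 0.072). In iHepSCs its difference was -0.02 (95% interval -0.57 to 0.53). Slc7a4, whose transport activity is not settled, was 0.86 ± 0.11 higher in iHepSCs and 0.80 ± 0.14 higher in pHep, with levels of 8.95 and 9.08 in iHepSCs, 8.95 in pHep and 8.04 to 8.27 in MEF. Its pHep call was lost when centred on Gapdh (adjusted p = 0.11).

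Of the heavy chains, Slc3a2 (CD98) was nearly level and Slc3a1 (rBAT) was high in pHep alone. Slc3a2 was at 12.02 and 12.26 in iHepSCs, at 11.89 in pHep, and at 11.84 to 11.98 in MEF. Its difference from MEF was 0.23 in iHepSCs (95% interval -0.03 to 0.49) and -0.02 in pHep (-0.36 to 0.31), neither past the test. Slc3a1 was at 5.50 and 5.74 in iHepSCs, at 9.57 in pHep, and at 5.31, 5.38, 5.56 and 5.38 in MEF. It was 4.17 ± 0.15 higher in pHep than in MEF (adjusted p = 1.72e-05) and iHepSCs minus pHep gave -3.96 ± 0.17 (adjusted p = 3.62e-05). One iHepSC array lay within the MEF range and the other just above it, a difference of 0.21 that passed no test. Slc7a9, the light chain that forms the cystine and cationic amino acid exchanger with Slc3a1, was not called in pHep. It was at 5.56 and 5.36 in iHepSCs, 4.56 in pHep and 4.38 to 4.94 in MEF, and was called higher in iHepSCs (0.74 ± 0.18), a call lost without either iHepSC array (adjusted p = 0.158 and 0.0906).

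The promoters of the transporter genes were searched for an HNF4 site (CAAAGTCCA) and for the HNF1 site on both strands, both factors being regulators of liver genes. Among 27025 genes with a RefSeq promoter, 128 (0.474%) held the first and 118 (0.437%) the second. Of the 46 transporter genes with a promoter in that table, Slc3a1 was the one that held the HNF4 letters, in the printed direction, beginning 39 bases before its start, and none held the HNF1 letters. Slc3a1 (GRCm38.p6, chr17:85028097-85028396, plus strand) and Slc6a13 (outermost of 3 starts, chr6:121300038-121300337, plus strand) are printed as a pair that was high in pHep, with the motif in capitals. These matches describe letters and are not evidence of binding.
Slc3a1: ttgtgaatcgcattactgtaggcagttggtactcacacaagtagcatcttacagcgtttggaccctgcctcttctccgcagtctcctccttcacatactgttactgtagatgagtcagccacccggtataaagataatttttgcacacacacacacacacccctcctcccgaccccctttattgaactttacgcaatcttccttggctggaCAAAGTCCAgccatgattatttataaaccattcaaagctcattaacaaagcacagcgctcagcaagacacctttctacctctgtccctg
Slc6a13: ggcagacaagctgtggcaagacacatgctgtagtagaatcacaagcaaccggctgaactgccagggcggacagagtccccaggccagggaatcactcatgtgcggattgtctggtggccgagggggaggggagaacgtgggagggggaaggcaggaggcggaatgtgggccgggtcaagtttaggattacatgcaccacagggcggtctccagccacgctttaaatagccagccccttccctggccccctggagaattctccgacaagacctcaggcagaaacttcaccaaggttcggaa

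The light chains that pair with Slc3a2 moved apart. Slc7a7 (y+LAT1), which exports cationic for neutral amino acids and is prominent in gut, kidney and macrophages, was at 8.78 and 8.34 in iHepSCs, at 7.73 in pHep, and at 6.38, 6.36, 6.63 and 6.50 in MEF. It rose by 2.09 ± 0.16 in iHepSCs (adjusted p = 0.000182) and by 1.26 ± 0.20 in pHep (adjusted p = 0.00569), and all 3 non-MEF arrays lay above MEF. A second probe set gave 1.17 in iHepSCs and -0.04 in pHep. Macrophage markers were high in the same pHep array, and their median was 5.81 and 6.00 in iHepSCs, below the MEF arrays. Of the 10 markers, 1 was higher in iHepSCs than in MEF (Cd14, by 4.15) and 2 were lower. Cd14 was at 12.63 and 12.07 in iHepSCs and at 10.79 in pHep. The part of macrophages in the Slc7a7 levels was not tested.

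Slc7a5 (LAT1), the exchanger that brings leucine and other large neutral amino acids into growing cells, was at 10.66 and 10.88 in iHepSCs, at 9.54 in pHep, and at 10.66, 10.59, 10.26 and 10.42 in MEF. It fell by 0.94 ± 0.19 in pHep (adjusted p = 0.0131, or 0.143 centred on Gapdh) and was 1.23 ± 0.21 higher in iHepSCs than in pHep (adjusted p = 0.00997, or 0.0566 without iHepSC replicate 2). Slc7a6 (y+LAT2) followed the same order, with 10.26 and 10.63 in iHepSCs, 9.28 in pHep and 9.82 to 10.16 in MEF. It fell by 0.78 ± 0.20 in pHep against MEF, a call lost without MEF replicate 2, 3 or 4 (adjusted p = 0.076, 0.0771 and 0.0738) or centred on Gapdh (0.153), and was 1.17 ± 0.22 higher in iHepSCs than in pHep (adjusted p = 0.0158, or 0.0653 without iHepSC replicate 2). Slc7a8 (LAT2) was at 5.01 and 4.88 in iHepSCs, 5.27 in pHep and 5.18 to 5.85 in MEF, with differences of -0.52 and -0.20 that passed no test.

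Slc7a11 (xCT), which imports cystine for glutathione synthesis, was at 5.84 and 5.77 in iHepSCs, at 5.37 in pHep, and at 5.75, 6.61, 6.57 and 6.57 in MEF. The difference was -0.57 ± 0.27 in iHepSCs (adjusted p = 0.167) and -0.999 ± 0.343 in pHep (adjusted p = 0.0739). Without MEF replicate 1, which lay at the iHepSC level, both were called lower. Its second probe set gave -0.03 in iHepSCs and 0.66 in pHep, where it was at 5.80, above the MEF arrays (4.71 to 5.42). Slc7a10, Slc7a12, Slc7a13 and Slc7a15 were at 3.72 to 6.01 on all arrays and passed no test with all arrays in the fit. Without MEF replicate 1, Slc7a13 was called higher in iHepSCs (0.341).

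The promoter of Slc7a7 is printed because it held the amino acid response element (TGATGNAA), the sequence through which Atf4 acts, at 2 places in the printed direction, beginning 141 and 1 bases before the outermost of its 5 listed starts (GRCm38.p6, chr14:54417895-54418194, minus strand), shown in capitals. This element was in 4 of the 46 transporter promoters, those of Slc1a4, Slc6a21, Slc7a7 and Slc7a11, or 8.7%, beside 4.06% of all promoters. The 4 genes did not share a direction: Slc7a7 was higher and Slc1a4 lower in both iHepSCs and pHep. The others, Slc6a21 and Slc7a11, were not called with all arrays in the fit. Without MEF replicate 1, Slc7a11 was called lower in iHepSCs (-0.775) and pHep (-1.206), and Slc6a21 higher in iHepSCs (0.49).
Slc7a7: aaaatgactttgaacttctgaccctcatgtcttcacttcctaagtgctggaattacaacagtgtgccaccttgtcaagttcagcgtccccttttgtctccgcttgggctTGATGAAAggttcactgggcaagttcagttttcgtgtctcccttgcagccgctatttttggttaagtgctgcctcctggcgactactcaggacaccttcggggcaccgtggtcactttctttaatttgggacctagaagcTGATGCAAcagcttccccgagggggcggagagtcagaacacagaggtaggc

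**Figure D3:**
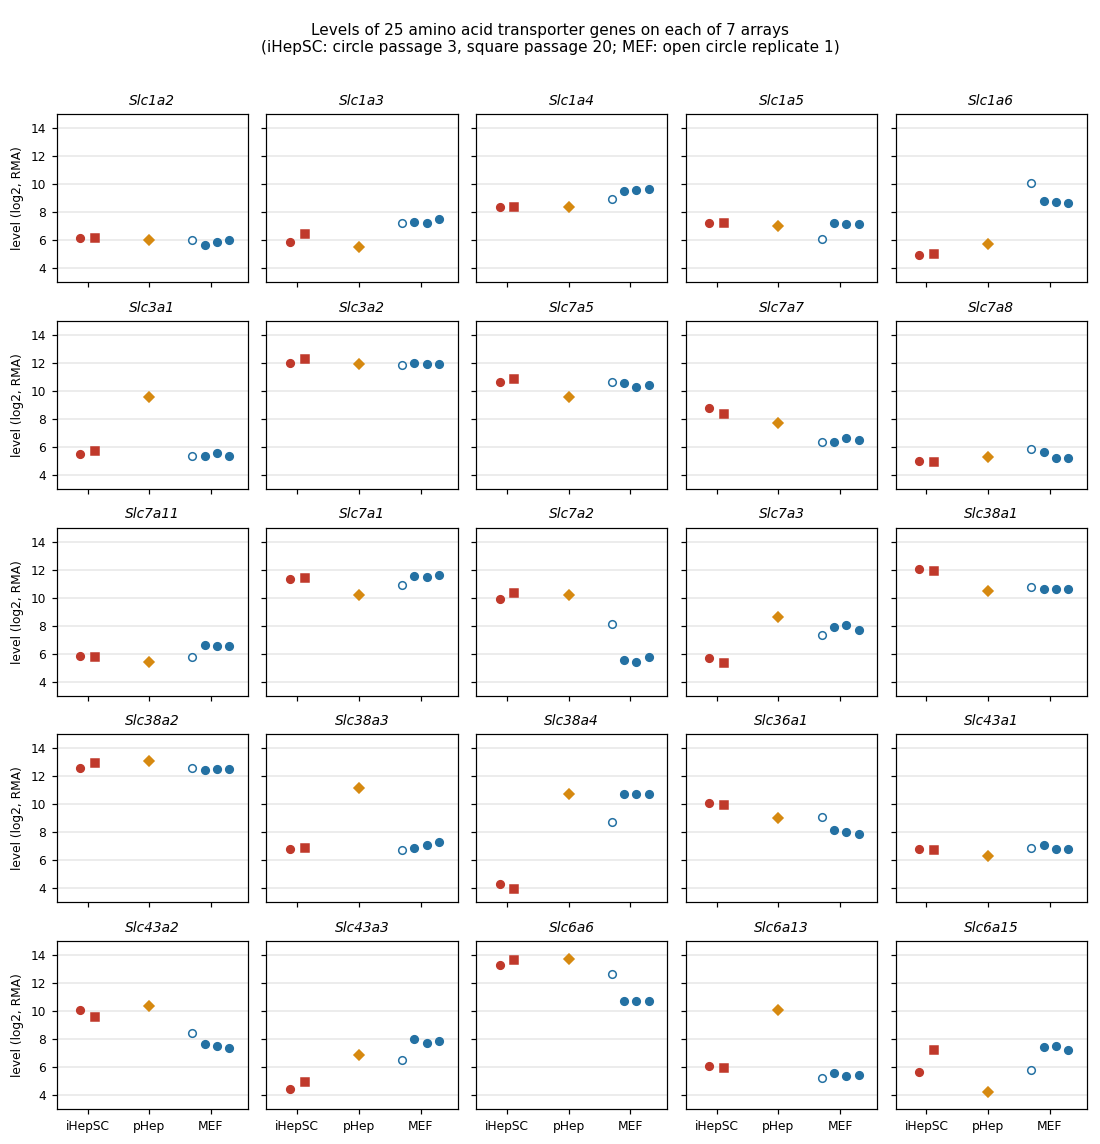
Log2 levels of 25 transporter genes on each of the 7 arrays, with iHepSCs on the left, pHep in the middle and MEF on the right. Slc3a1, Slc38a3 and Slc6a13 are high in pHep alone, Slc38a4 is low in iHepSCs alone, and the open circle of MEF replicate 1 leaves the other MEF arrays in Slc7a2, Slc6a6 and Slc38a4.

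With all arrays in the fit, 3 of 7 Slc1 carriers were lower in iHepSCs, the same 3 were lower in pHep, and none was higher. Among all genes, 13.4% were lower in iHepSCs and 15.5% in pHep, and both comparisons use the same MEF arrays. Without MEF replicate 1, Slc1a1 was called higher in iHepSCs (0.33). Slc1a6 (EAAT4), a glutamate carrier known from Purkinje cells, was at 4.95 and 4.995 in iHepSCs, at 5.72 in pHep, and at 10.07, 8.78, 8.71 and 8.66 in MEF. All MEF arrays lay well above the others, and the difference was -4.08 ± 0.42 in iHepSCs (adjusted p = 0.000752) and -3.33 ± 0.54 in pHep (adjusted p = 0.00611), read by a single probe set. Slc1a3 (GLAST), a glutamate carrier of glia, was at 5.88 and 6.45 in iHepSCs, at 5.48 in pHep, and at 7.24 to 7.52 in MEF. It fell by 1.15 ± 0.18 in iHepSCs and fell by 1.84 ± 0.24 in pHep, and each of its 6 probe sets gave a negative difference in both. Centred on Gapdh, the iHepSC difference was -0.66 and the call was lost (adjusted p = 0.104). Slc1a4 (ASCT1), which exchanges alanine, serine and cysteine, was at 8.34 on both iHepSC arrays, at 8.37 in pHep, and at 8.93, 9.48, 9.56 and 9.62 in MEF. It fell by 1.06 ± 0.21 in iHepSCs (adjusted p = 0.0108) and by 1.03 ± 0.27 in pHep (adjusted p = 0.0333). The first call was lost without either iHepSC array (adjusted p = 0.0789 and 0.0848) or centred on Gapdh, where the difference was -0.57 (0.0682), and the second without any 1 of MEF replicates 2 to 4 or of the iHepSC arrays (adjusted p = 0.0711 to 0.0791).

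The other Slc1 genes gave no call with all arrays in the fit. Slc1a2 (GLT-1), a glutamate carrier of astrocytes that perivenous hepatocytes also use, was at 6.12 and 6.16 in iHepSCs, at 6.00 in pHep, and at 5.62 to 6.02 in MEF, and so was not detectably raised in pHep (difference 0.12, 95% interval -0.31 to 0.56). Slc1a5 (ASCT2), the glutamine carrier of dividing cells, was at 7.20 and 7.22 in iHepSCs, at 6.99 in pHep, and at 6.06, 7.25, 7.18 and 7.14 in MEF. Its differences of 0.30 and 0.08 had wide intervals (-0.56 to 1.17 and -1.04 to 1.19), and 1 MEF array lay more than 1 below the rest. The differences of Slc1a1 and Slc1a7 from MEF lay between -0.49 and 0.17.

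Of 10 Slc6 genes that carry GABA, taurine or other substrates, 2 were higher in iHepSCs (Slc6a6 and Slc6a13) with all arrays in the fit. In pHep 1 was higher (Slc6a13), and none was lower in either. Among all genes, 18.2% were higher and 13.4% lower in iHepSCs, and 14.8% and 15.5% in pHep. Slc6a13 (GAT2), a taurine and GABA carrier of hepatocytes, was at 6.04 and 5.93 in iHepSCs, at 10.08 in pHep, and at 5.20, 5.55, 5.34 and 5.41 in MEF. It was 4.71 ± 0.16 higher in pHep (adjusted p = 1.2e-05), the highest difference of the 63 genes. In iHepSCs it was 0.61 ± 0.12 above MEF (adjusted p = 0.0116, or 0.0955 and 0.0621 without replicate 1 or 2 of the iHepSCs) and iHepSCs minus pHep gave -4.10 ± 0.17 (adjusted p = 3.6e-05). Its neighbour Slc6a12, the next protein-coding gene on chromosome 6, was at 4.91 and 4.96 in iHepSCs, 5.19 in pHep and 5.11 to 5.41 in MEF and was not called.

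Slc6a6 (TauT), the main taurine carrier of most tissues, was at 13.31 and 13.61 in iHepSCs, at 13.69 in pHep, and at 12.64, 10.74, 10.69 and 10.73 in MEF. It rose by 2.26 ± 0.59 in iHepSCs (adjusted p = 0.0309), and in pHep the difference of 2.49 ± 0.77 missed the threshold (adjusted p = 0.054). All 3 arrays lay above all MEF arrays, and MEF replicate 1 lay nearer to them than to the other MEF arrays. The iHepSC call was lost without MEF replicate 2, 3 or 4 (adjusted p = 0.0825, 0.0816 and 0.0818) or either iHepSC array (0.134 and 0.189), and without MEF replicate 1 both differences were called, at 2.74 and 2.97. A second probe set gave 1.71 and 2.38, and 2 dimmer ones gave -0.13 and -0.52 in iHepSCs.

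With all arrays in the fit, 1 of 10 Slc6 genes that carry amino acids was called in iHepSCs and 2 in pHep, all lower. Among all genes, 13.4% were lower in iHepSCs and 15.5% in pHep. Without MEF replicate 1, Slc6a9 (0.435) and Slc6a19 (0.323) were called higher in iHepSCs. Slc6a7 was then called lower in iHepSCs (-0.454) and in pHep (-0.785). Slc6a15, a carrier of branched-chain amino acids and proline, was at 5.64 and 7.19 in iHepSCs, at 4.23 in pHep, and at 5.82, 7.41, 7.52 and 7.23 in MEF. It fell by 2.77 ± 0.80 in pHep (adjusted p = 0.0449), the weakest of the pHep calls, which was lost without any 1 of the other arrays but MEF replicate 1 (adjusted p = 0.0522 to 0.0989) or on repeated quantile normalization (0.0634). Slc6a17, a synaptic vesicle carrier of neutral amino acids, fell by 0.50 ± 0.11 in iHepSCs and fell by 0.75 ± 0.14 in pHep, the first call lost without either iHepSC array (adjusted p = 0.0907 and 0.115) or on the mean of its probe sets (0.0596). Centred on Gapdh, its difference was -0.01 in iHepSCs and -0.72 in pHep, and neither was called (adjusted p = 0.982 and 0.145).

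With all arrays in the fit, 1 of the 4 proton-coupled carriers was called, and all 3 facilitated carriers were called in at least 1 comparison with MEF. Among all genes, 18.2% were higher and 13.4% lower in iHepSCs, and 14.8% and 15.5% in pHep. Slc36a1 (PAT1), which lets small neutral amino acids out of lysosomes, was at 10.06 and 9.94 in iHepSCs, at 9.06 in pHep, and at 9.10, 8.18, 8.02 and 7.91 in MEF. It rose by 1.70 ± 0.34 in iHepSCs (adjusted p = 0.0115, or 0.0909 and 0.0803 without replicate 1 or 2 of the iHepSCs), and in pHep the difference was 0.75 ± 0.44 (adjusted p = 0.237). Slc36a2, Slc36a3 and Slc36a4 passed no test with all arrays in the fit, and the first 2 are neighbours of Slc36a1 on chromosome 11. Without MEF replicate 1, Slc36a1 was also called higher in pHep (1.017). Slc36a4 was then called higher in iHepSCs (0.977) and not in pHep (0.294).

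Slc43a2 (LAT4), a carrier of branched-chain amino acids, methionine and phenylalanine, was at 10.10 and 9.58 in iHepSCs, at 10.34 in pHep, and at 8.44, 7.65, 7.50 and 7.40 in MEF. It rose by 2.09 ± 0.33 in iHepSCs (adjusted p = 0.00418) and by 2.59 ± 0.42 in pHep (adjusted p = 0.00604), with all 3 probe sets higher in both. Slc43a1 (LAT3), the other leucine carrier of the family, was at 6.80 and 6.76 in iHepSCs, 6.33 in pHep and 6.79 to 7.09 in MEF, and fell by 0.56 ± 0.15 in pHep (adjusted p = 0.036). That call was lost without MEF replicate 3 or 4 or either iHepSC array (adjusted p = 0.0618 to 0.0731), on repeated quantile normalization (0.109) and centred on Gapdh (0.292). Slc43a3, known as a purine nucleobase carrier, was at 4.41 and 4.90 in iHepSCs, at 6.86 in pHep, and at 6.54, 7.99, 7.75 and 7.85 in MEF. It fell by 2.87 ± 0.43 in iHepSCs (adjusted p = 0.00365) and had a difference of -0.67 ± 0.56 in pHep.

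The 2 iHepSC passages were set side by side. Of the 63 genes, 60 differed by less than 0.5, and the median size of the difference was 0.18, beside 0.12 for all genes. Slc6a15 differed most, being 1.55 higher at P20, where it reached the level of MEF replicates 2 to 4, while its P3 level was near that of MEF replicate 1. Next came Slc1a3 (0.57), Slc43a2 (-0.53), Slc43a3 (0.49) and Slc7a2 (0.48). On the mean of their probe sets, Slc1a3 and Slc7a2 differed by 0.10 each, and centred on Gapdh the differences were 1.85 for Slc6a15, 0.87 for Slc1a3, -0.22 for Slc43a2, 0.79 for Slc43a3 and 0.78 for Slc7a2. Each passage was measured on 1 array, and no test was made. MEF replicate 1 differed more: 6 genes were over 1 higher in it than the mean of MEF replicates 2 to 4, and 4 were over 1 lower, with Slc7a2 (2.51), Slc6a6 (1.92) and Slc6a8 (1.65) highest and Slc38a4 (-1.99) lowest.

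**Figure D4:**
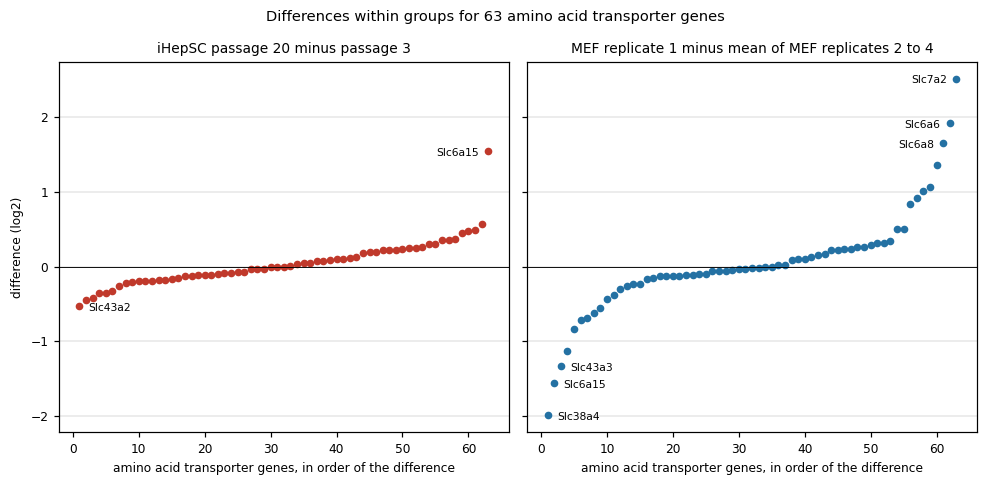
Differences within groups for the 63 transporter genes in order of size, iHepSC passage 20 minus passage 3 on the left and MEF replicate 1 minus the mean of MEF replicates 2 to 4 on the right (log2). The passages differ by more than 1 in Slc6a15 alone, and MEF replicate 1 differs by more than 1 in 10 genes.

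Genes that act with these carriers were read from 4 further lists, to be set beside the 18.2% higher and 13.4% lower of all genes in iHepSCs and the 14.8% and 15.5% in pHep. Of 19 other amino acid and peptide carriers, 3 were called in iHepSCs and 4 in pHep, each of them higher (median difference of the list 0.07 and 0.08). Slc16a10, a carrier of aromatic amino acids, rose by 2.10 ± 0.13 in iHepSCs and by 0.97 ± 0.17 in pHep, and Slc25a15, the mitochondrial ornithine carrier of the urea cycle, was 0.75 ± 0.11 higher in iHepSCs and 2.27 ± 0.15 higher in pHep. Slc15a4, a lysosomal histidine and peptide carrier, was 0.86 ± 0.22 higher in iHepSCs, and Slc25a13, the aspartate and glutamate carrier of liver mitochondria, 1.59 ± 0.47 higher in pHep.

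Of 20 genes of the amino acid response, which Atf4 drives when amino acids run short, 3 were higher and 6 lower in iHepSCs (median -0.17), and 4 were higher and 3 lower in pHep (median 0.12). Atf3, a stress-induced repressor, was 2.53 higher in iHepSCs and 2.49 higher in pHep. Ddit4, an inhibitor of mTORC1, was 2.11 ± 0.50 higher in iHepSCs, and Atf5 was 2.31 ± 0.67 higher in pHep (adjusted p = 0.0466). MEF replicate 1 stood above the other MEF arrays for both, at 11.912 against 10.265 to 10.317 for Ddit4 and 11.894 against 10.165 to 10.269 for Atf5. Mthfd2, of mitochondrial folate metabolism, fell by 1.31 in iHepSCs and fell by 0.92 in pHep, Trib3 fell by 1.02 in iHepSCs, and Nupr1 fell by 2.70 in pHep. Of 11 glutathione and Nrf2 genes, 5 were higher and 4 lower in iHepSCs (median 0.33), and 4 were higher and 2 lower in pHep (median 0.77). Gclc, the catalytic subunit of the rate-limiting enzyme of glutathione synthesis, was 3.04 higher in iHepSCs and 2.95 in pHep. Gsr was 2.75 higher in iHepSCs and 1.04 in pHep, and Gclm was 1.35 higher in iHepSCs and 2.74 in pHep. Nqo1, a quinone reductase, fell by 5.34 in iHepSCs and fell by 5.20 in pHep, and Hmox1, which breaks down heme, fell by 2.29 in iHepSCs. MEF replicate 1 was also the highest MEF array for Gclm (11.153 against 10.200 to 10.330) and Hmox1 (12.055 against 10.702 to 10.854). Txnrd1 fell by 0.90 in iHepSCs and fell by 0.92 in pHep.

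Of 14 genes of amino acid sensing by mTORC1, which include Slc38a9, 2 were higher and 4 lower in iHepSCs (median -0.01), and 3 were higher and 2 lower in pHep (median 0.25). Rragd, a Rag GTPase, was at 4.77 and 4.84 in iHepSCs, at 10.12 in pHep, and at 5.97 to 7.65 in MEF. It fell by 1.71 in iHepSCs and rose by 3.60 in pHep. Castor1, an arginine sensor, fell by 1.39 in iHepSCs and fell by 1.74 in pHep, and Lamtor1 fell by 1.01 in iHepSCs and fell by 1.001 in pHep. Nprl2 was 0.77 higher in iHepSCs, and Mtor was 1.09 higher in pHep.

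With all arrays in the fit, 8 of the 10 Slc6 genes of amino acid transport passed no test in pHep and 9 none in iHepSCs. The 5 carriers of monoamines, creatine and betaine (Slc6a2, Slc6a3, Slc6a4, Slc6a8 and Slc6a12) were then called in no comparison. Slc6a8, the creatine carrier, was at 10.08 and 10.44 in iHepSCs, 10.08 in pHep and 10.96, 9.44, 9.31 and 9.18 in MEF, so that MEF replicate 1 was the highest of all 7 arrays. Without that array, Slc6a8 was called higher in iHepSCs (0.95) and pHep (0.77), and Slc6a3 lower in pHep (-0.31). The second probe set of Slc6a8, over all arrays, gave -0.60 in iHepSCs and -0.84 in pHep. On the probe sets used, the 3 opposite-strand genes had differences from MEF of -0.35 to 0.24. They passed no test with all arrays in the fit. Without MEF replicate 1, Slc7a6os was called lower in iHepSCs (-0.533). The second probe set of Slc7a6os, over all arrays, ran the other way, with differences of 1.496 in iHepSCs and 0.124 in pHep and no test. Of the 17 genes called in iHepSCs, 11 had more than 1 probe set, and in 10 of them all probe sets ran one way, Slc6a6 being the exception. For pHep this held for 9 of 13, with Slc38a10, Slc38a2, Slc7a4 and Slc7a7 the exceptions.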

How the data were processed

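RNA of 7 samples was measured on Affymetrix mouse arrays. The authors deposited log2 values that they had made by RMA (background correction, quantile normalization and a summary for each of 45101 probe sets), and its software version is not given in the sources used here. RMA compresses differences of dim probe sets, and precision is limited by how few arrays there are. The platform annotation gave 1 gene symbol to 34945 probe sets, several to 932 and none to 9160, beside 64 controls. Where a gene had several probe sets, the brightest on average was used. All 63 transporter genes matched RefSeq by Entrez ID.

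Group means were compared with limma 3.58.1 (lmFit and eBayes, R 4.3.3) over all arrays and 18193 genes, with Benjamini-Hochberg adjustment and a threshold of 0.05. The single pHep array borrows its spread from MEF and iHepSCs. Errors beside differences are standard errors. The model was tested on simulated data, in which all arrays were drawn independently with a single spread per gene. That setting holds no array like MEF replicate 1 and no closely alike MEF arrays, so it cannot show how these affect the calls. Motifs, counts and plots were made with Python 3.11.15, pandas 2.3.3 and matplotlib 3.10.9.

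The transporter genes and gene lists were chosen with earlier results of these data known. Genes named with values were those past the test with a difference of at least 1 in iHepSCs or at least 2 in pHep against MEF, and Slc1a2, Slc1a5, Slc3a2, Slc7a1, Slc7a2, Slc7a5, Slc7a8, Slc7a11, Slc38a2, Slc38a3, Slc38a4 and Slc43a1 whatever their values. In the other lists these were up to 2 rises and 2 falls of the largest size, and genes outside these rules were named after their values were seen.

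The alternatives were the mean of a gene's probe sets, omission of _x_at and _s_at probe sets, a minimum of 6 on at least 1 array, repeated quantile normalization, centring by array median or by Gapdh, a trended and robust variance fit, omission of single replicates, a replicate block, minimum changes of 1.2-fold or 2-fold, and the methods' t-test. Averaging MEF replicates 2 to 4 was chosen after seeing the data.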

Additional observations from a re-analysis of the deposited data

Results flagged for a closer look

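In 14 of the 63 transporter genes, 1 of the 4 MEF arrays lay far from the others by Dixon's ratio. Chance flags about 1 in 20 genes, and genes of 1 array are not independent. MEF replicate 1 was the far array in 11 of the 14. Against the mean of MEF replicates 2 to 4 it was higher by 2.51 for Slc7a2, 1.92 for Slc6a6, 1.65 for Slc6a8, 1.36 for Slc1a6 and 1.02 for Slc36a4. It differed from them by -1.99 for Slc38a4, -1.56 for Slc6a15, -1.33 for Slc43a3, -1.13 for Slc1a5, -0.83 for Slc7a11 and -0.68 for Slc7a1. In the 3 other genes the distance was small: MEF replicate 4 was 0.27 higher for Slc1a3, MEF replicate 2 was 0.27 higher for Slc38a7 and MEF replicate 3 was 0.30 higher for Slc6a12. The dividing cell markers were lower in the same MEF replicate 1, and their part in these levels was not tested.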

How the results depend on the processing

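No call on a named gene reversed under the alternatives run. Of 44 calls on named genes, 15 were kept under every alternative other than the replicate block, the methods' t-test and the minimum changes. The minimum changes of 1.2-fold and 2-fold were applied to the counts only. The counts of called genes moved with how the spread was estimated and with the scaling, and the cause was not tested. For iHepSCs against MEF (10 higher, 7 lower), averaging MEF replicates 2 to 4 gave 4 and 3, a 2-fold floor gave 6 higher, centring on Gapdh, which moved the median difference of all genes to 0.50, gave 4 lower, and the methods' t-test after adjustment gave 6 higher. For pHep against MEF (10 and 9), averaging gave 3 and 2, the 2-fold floor 6 and 5, Gapdh 5 lower, and the methods' t-test after adjustment 1 lower. For iHepSCs against pHep (3 and 5), averaging gave 1 higher, Gapdh 6, the array median 5, the mean of all probe sets 6, and the methods' t-test 6 higher at its own threshold and 1 after adjustment, with 0 lower after adjustment (6 unadjusted).

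Leaving out 1 array gave 5 to 19 higher and 5 to 10 lower for iHepSCs against MEF, 6 to 14 and 4 to 13 for pHep against MEF, and 2 to 14 and 5 to 8 for iHepSCs against pHep. The highest counts came without MEF replicate 1. Without MEF replicate 2, 3 or 4, pHep against MEF gave 6 higher in each case and 5, 4 and 4 lower. Without either iHepSC array, iHepSCs against MEF gave 5 higher and pHep against MEF 5 lower.

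Replicate numbers are shared between groups, but nothing in the labels pairs the arrays, and the deviations of replicate 1 in iHepSCs and MEF correlated at -0.226 over genes. The replicate block gave 2 higher and 3 lower for iHepSCs against MEF, 3 and 0 for pHep against MEF, and 0 and 3 for iHepSCs against pHep. Where it gave 0 by limma, 5 and 7 genes had an unadjusted p under 0.05.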
